A study of Homo sapiens with 8 samples.

Results

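DNA methylation and demethylation enzymes are described here over 8 RNA sequencing libraries of a human lymphoblastoid cell line, that is, B cells transformed by Epstein-Barr virus that divide without limit in culture. The members were chosen by gene symbol alone: DNMT1, UHRF1, DNMT3A, DNMT3B, TET1, TET2, TET3, TDG and MBD4, 9 of the 23710 genes in the count tables. All 9 were present and all 9 passed the filter on low counts, as did 12536 genes in all. The groups were control cells with no chromium, cells at 24 h of exposure to 5 µM hexavalent chromium, and cells 3 days and 7 days post treatment after the same 24 h exposure, with 2 libraries described as biological replicates in each of the 4 groups. All cells came from 1 line grown in RPMI medium, so the libraries share 1 genotype and the spread between them holds no variation between people. The series text counts its time points from the onset of exposure and the sample labels from treatment, so the day count has an unsettled origin. No unexposed cells of the later days were analysed here, and exposure and time in culture cannot be told apart.

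Methylation of cytosine in CpG dinucleotides is copied after each round of DNA replication. UHRF1 binds hemimethylated CpG sites behind the replication fork and brings in DNMT1, which methylates the new strand. DNMT3A and DNMT3B methylate sites that carried no mark before. TET1, TET2 and TET3 oxidise 5-methylcytosine stepwise in reactions that need iron and 2-oxoglutarate. TDG excises the most oxidised forms, as well as thymine paired with guanine, and MBD4 excises thymine or uracil paired with guanine at CpG sites, after which base excision repair restores cytosine. In B cells DNMT1 and UHRF1 are known to be high during the divisions of the germinal centre, TET2 and TET3 are known as the main TET enzymes of the lineage, and hexavalent chromium is known as a carcinogen that damages DNA once reduced inside cells.

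The libraries held between 9478459 and 11110830 counts assigned to genes, of which the 9 members took between 0.0766% and 0.0927%. All 13 B cell markers, MS4A1 and PAX5 among them, stood at 10 CPM (CPM being a read count divided by the normalised library size) or more in every library. The markers of T and NK cells summed to between 1.02 and 4.01 CPM, those of stromal or epithelial cells to between 1.55 and 7.56 CPM, and those of pluripotent or germ cells to between 0.603 and 1.7 CPM. None of these 3 lists had a gene at 10 CPM. The 8 myeloid markers summed to between 5.17 and 14.3 CPM, and 1 of them reached 10 CPM in control replicate 2 and 24 h replicate 1. Over the 9 members no library had its own replicate as its nearest neighbour. By the root mean square difference of log2 CPM the closest pairs were control replicate 1 with 24 h replicate 2 (0.147), control replicate 2 with 24 h replicate 1 (0.168), replicate 1 at 3 days with replicate 1 at 7 days (0.225) and replicate 2 at 3 days with replicate 2 at 7 days (0.227), whereas replicates of 1 group lay 0.497 to 0.865 apart. The pairing was the same over all genes tested. Replicate 1 at 3 days and replicate 1 at 7 days stood apart from the rest, with 39.4% and 36.5% of reads under no feature against 44.4% to 51.5% in the other libraries. Many results in which these 2 libraries held the extreme values are also given without them.

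The members spanned about 2 orders of magnitude in level. Scaled per kilobase of coding sequence so that genes of unequal length can be set side by side, the mean over 8 libraries was 118.7 CPM per kb for TDG, 102.4 for MBD4 and 39.3 for DNMT1. TET3 followed at 21.6 CPM per kb, UHRF1 at 21.3, DNMT3A at 20.5 and TET2 at 18.4. TET1 at 0.939 CPM per kb and DNMT3B at 0.72 closed the order. The ranges of TDG and MBD4 over the libraries overlapped (100.7 to 133.9 and 89.3 to 114.9 CPM per kb), as did those of TET3, UHRF1, DNMT3A and TET2 among themselves and those of TET1 and DNMT3B. MBD4 lay above DNMT1 in every library (highest DNMT1 value 44.3), and DNMT1 above TET3 (DNMT1 from 30.6, TET3 up to 29.6). Per kilobase of all exons, MBD4 stood above TDG at 61.7 against 44.3 CPM per kb, UHRF1 above TET3 at 10.8 against 10.2, and TET2 above DNMT3A at 7.19 against 5.45, so the order within these pairs depends on the length used. DNMT3L, the inactive cofactor of the de novo enzymes in germ cells, had 1 count in the 8 libraries together.

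**Figure D1:**
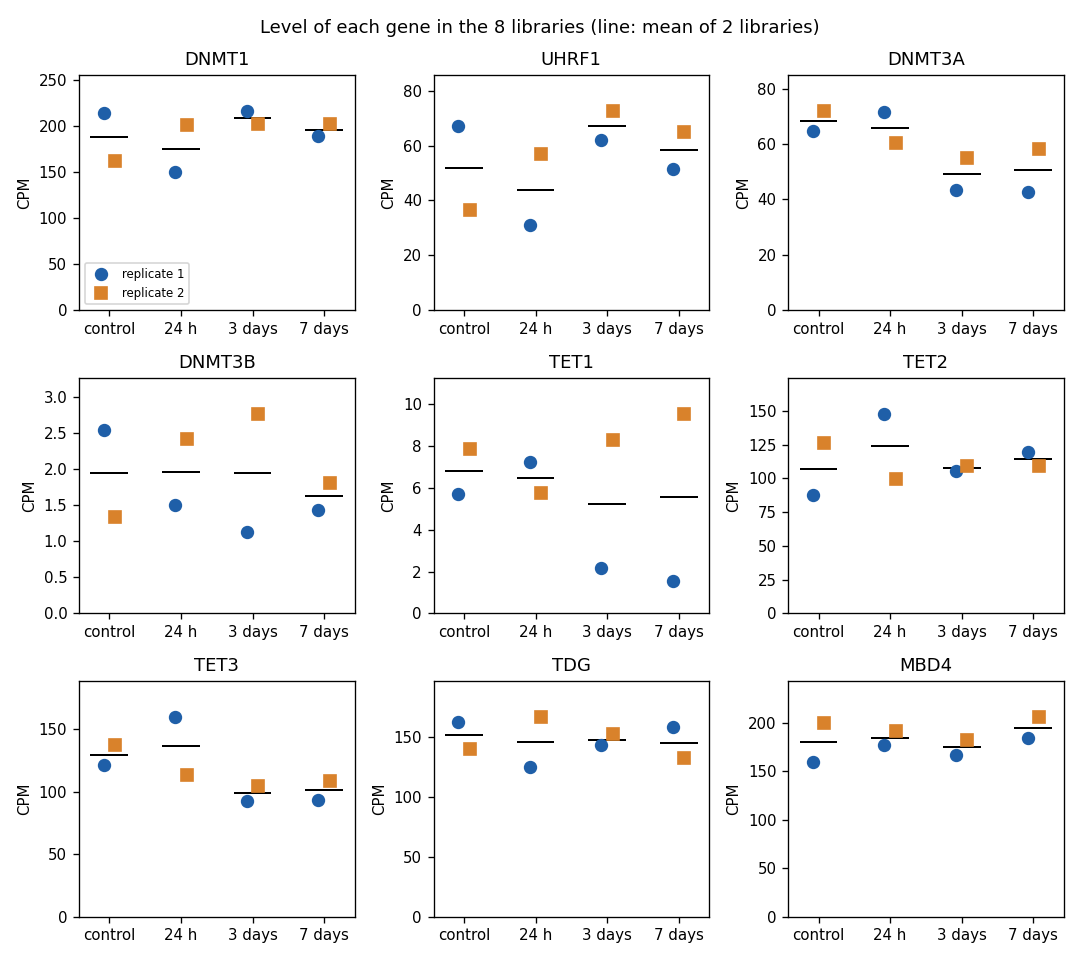
Level of each of the 9 genes in CPM (vertical axis, from 0) in the 4 groups (horizontal axis), with replicate 1 as circles, replicate 2 as squares and the mean of 2 libraries as a line. DNMT3A and TET3 lie lower in all 4 libraries of 3 and 7 days than in the 4 others, and the TET1 replicates of 3 and 7 days lie far apart (2.16 and 8.3 CPM, 1.55 and 9.55 CPM).

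None of the 9 members passed the threshold (edgeR's quasi-likelihood test, Benjamini-Hochberg adjusted p under 0.05 over all 12536 genes) in any comparison. At 24 h against control 0% of all genes were called, and 0.175% (22 genes) had an unadjusted p under 0.05, none of them a member. At 24 h no member had its 2 libraries on 1 side of both controls, which 23.9% of all genes did. At 3 days against control 0% were called and 5.29% (663 genes) had an unadjusted p under 0.05, and at 7 days 0% and 4.94% (619 genes), again with no member among them. DESeq2 called 0 genes at 24 h, 9 at 3 days and 15 at 7 days, and limma-voom 0 in each, with no member called by either. The median log2 fold change of the 9 members against control was -0.05 at 24 h, -0.04 at 3 days and -0.06 at 7 days, with 4 higher and 5 lower each time. For 7 days against 3 days 0% of genes were called, 0.247% (31 genes) had an unadjusted p under 0.05, and DESeq2 and limma-voom called 0. In the joint test of the 3 exposed groups 0% were called and 3.56% (446 genes) had an unadjusted p under 0.05, where DESeq2 called 65 and limma-voom 0.

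The 4 libraries of 3 and 7 days (late) were also set against the 4 of control and 24 h (early), a contrast chosen with earlier results of these data known. In it 0.00798% of genes were called, which is 1 gene, ITGA1, an integrin subunit (log2 fold change -1.77, edgeR adjusted p = 0.0263). Unadjusted p was under 0.05 for 2 of the 9 members, DNMT3A and TET3, against 14.2% of all genes. The same 2 genes were the ones whose late libraries all lay below all early ones, against 7.43% of all genes in that direction and 13.4% in either. The median log2 fold change of the 9 members was -0.05, with 3 higher and 6 lower, beside 0.01 over all genes tested. Since late libraries of the same number resemble each other, as control and 24 h libraries do, 4 libraries a side may hold fewer than 4 independent cultures, and the p-values of this contrast would then be too small.

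**Figure D2:**
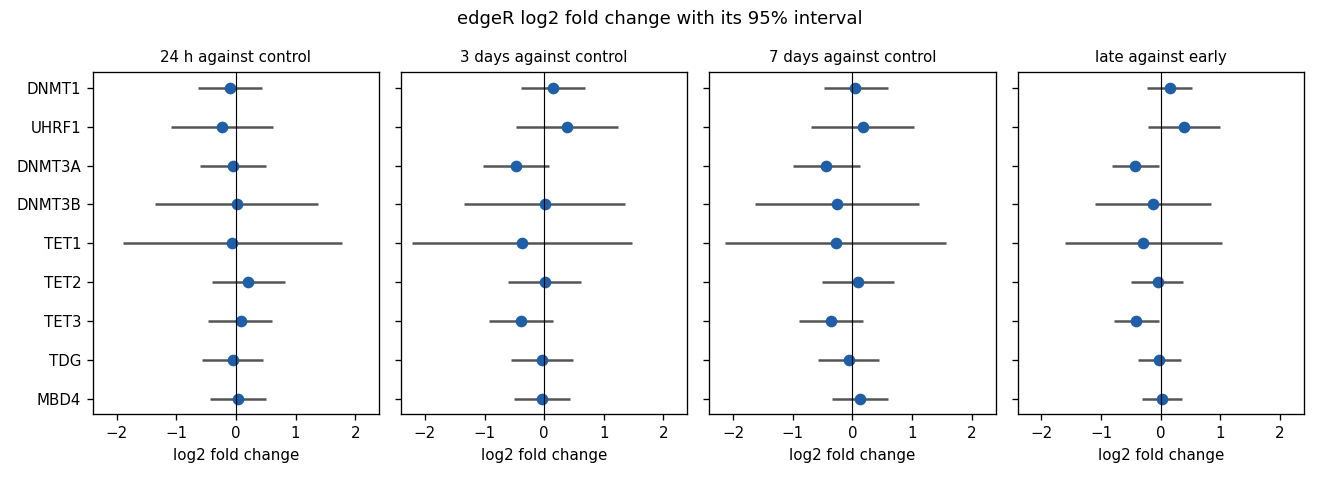
Log2 fold change of each gene (point) with its 95% interval (line) from the edgeR fit in 4 comparisons, on a common horizontal axis. Every interval includes 0 except those of DNMT3A (-0.82 to -0.03) and TET3 (-0.79 to -0.03) in the contrast of late with early libraries, and the intervals of TET1 and DNMT3B are the widest.

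The maintenance enzymes are taken first. UHRF1 stood at 67.1 and 36.3 CPM in control, 31.1 and 56.9 at 24 h, 61.9 and 72.7 at 3 days, and 51.6 and 64.9 at 7 days (replicate 1 and 2 in each pair). The 2 lowest values were control replicate 2 and 24 h replicate 1, and both of these groups also held a value close to those of the later days. The group means were 51.7 ± 21.8, 44 ± 18.3, 67.3 ± 7.67 and 58.3 ± 9.44 CPM (SD, n = 2). UHRF1 differed from control by -0.23 on the log2 scale at 24 h (95% interval -1.09 to 0.63), 0.38 at 3 days (-0.48 to 1.24) and 0.17 at 7 days (-0.69 to 1.03), each well within the spread. Late against early the difference was 0.39 ± 0.26 (SE; edgeR adjusted p = 0.479).

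DNMT1, the maintenance methyltransferase, had the highest mean CPM of the 9. It stood at 214.8 and 162.3 CPM in control, 149.9 and 201 at 24 h, 216.8 and 201.8 at 3 days, and 189.5 and 201.9 at 7 days. As for UHRF1, control replicate 2 and 24 h replicate 1 were the 2 lowest libraries, and the late libraries lay inside or just above the range of the others. The log2 fold changes were -0.1 at 24 h (95% interval -0.64 to 0.43), 0.15 at 3 days (-0.39 to 0.69) and 0.05 at 7 days (-0.48 to 0.59), so an increase beyond 0.69 on that scale at 3 days lies outside the interval. Part of the DNMT1 locus overlaps S1PR2, a receptor gene on the same strand with 1422 counts over the 8 libraries. Some reads were entered as ambiguous, but how the authors assigned reads shared by the 2 genes is not given in the sources used here.

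Both genes are known targets of the E2F factors that switch on S phase genes, so their promoters and the S phase list were examined. The 250 bases before the first annotated start of each are shown because this is where the 2 genes differ in the E2F letters searched. The sequences come from the RefSeq table on GRCh38.p14, in which all 9 members were matched, for UHRF1 chr19:4909251-4909500 on the plus strand and for DNMT1 chr19:10194954-10195203 on the minus strand, and capitals mark the E2F match.
UHRF1: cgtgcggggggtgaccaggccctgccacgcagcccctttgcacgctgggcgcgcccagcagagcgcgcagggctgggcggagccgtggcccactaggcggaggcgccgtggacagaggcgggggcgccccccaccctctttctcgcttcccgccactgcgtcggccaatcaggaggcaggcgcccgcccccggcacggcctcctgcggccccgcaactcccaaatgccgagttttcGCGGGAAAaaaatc
DNMT1: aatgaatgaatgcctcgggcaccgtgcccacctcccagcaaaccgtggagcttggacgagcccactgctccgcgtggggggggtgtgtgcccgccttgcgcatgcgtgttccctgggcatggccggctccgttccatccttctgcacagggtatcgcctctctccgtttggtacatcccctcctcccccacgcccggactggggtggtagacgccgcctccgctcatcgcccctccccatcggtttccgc
The letters searched on both strands were TTTCCCGC, TTTGGCGC, TTTCGCGC and TTTGCCGC. The UHRF1 window held 1 match, beginning 14 bases before the start, and the DNMT1 window held none. The windows before the other 2 annotated starts of UHRF1 held 1 and 0 matches. Of 35116 promoter windows of this length, 2.79% held a match. The UHRF1 window held 28 CpG dinucleotides and the DNMT1 window 21, beside a median of 11 over all windows. A match describes letters only and was not measured as a binding site in these cells.

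The list of 43 S phase genes held genes of replication forks and nucleotide supply, and also the proliferation marker MKI67 and the cyclin gene CCNA2. Its genes summed to 5124 and 3729.1 CPM in control and to 3223.3 and 5025.4 CPM at 24 h. They summed to 6156.8 and 5582.8 CPM at 3 days and 6352.5 and 5825.1 CPM at 7 days. Every late library lay above every early one in this sum, and the 2 lowest were again control replicate 2 and 24 h replicate 1, the 2 libraries lowest for UHRF1 and DNMT1. At 24 h against control 14 were higher and 29 lower (median log2 fold change -0.04, all genes 0). Late against early, 39 of 43 were higher and 4 lower and the median was 0.38 (all genes 0.01), none was called, and 17 of 43 had an unadjusted p under 0.05 against 14.2% of all genes. RRM1, a ribonucleotide reductase subunit, ranged from 158.2 to 283.2 CPM in early and from 334.8 to 547.4 CPM in late libraries (log2 fold change 0.96 ± 0.28, SE, edgeR adjusted p = 0.265). Without the 2 late replicate 1 libraries, 43 of 43 were higher, though the median fell to 0.32 (all genes -0.01) and RRM1 to 0.6. That fit holds 1 library in each late group, so the count of 43 describes direction only. UHRF1 differed late against early by 0.39 and DNMT1 by 0.15, beside the list median of 0.38. Replicate 1 at 7 days had the highest sum, with UHRF1 at 51.6 and DNMT1 at 189.5 CPM, the lowest late value of each. In bulk RNA, a larger share of cells in S phase and more RNA per cell in S phase cannot be told apart.

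**Figure D3:**
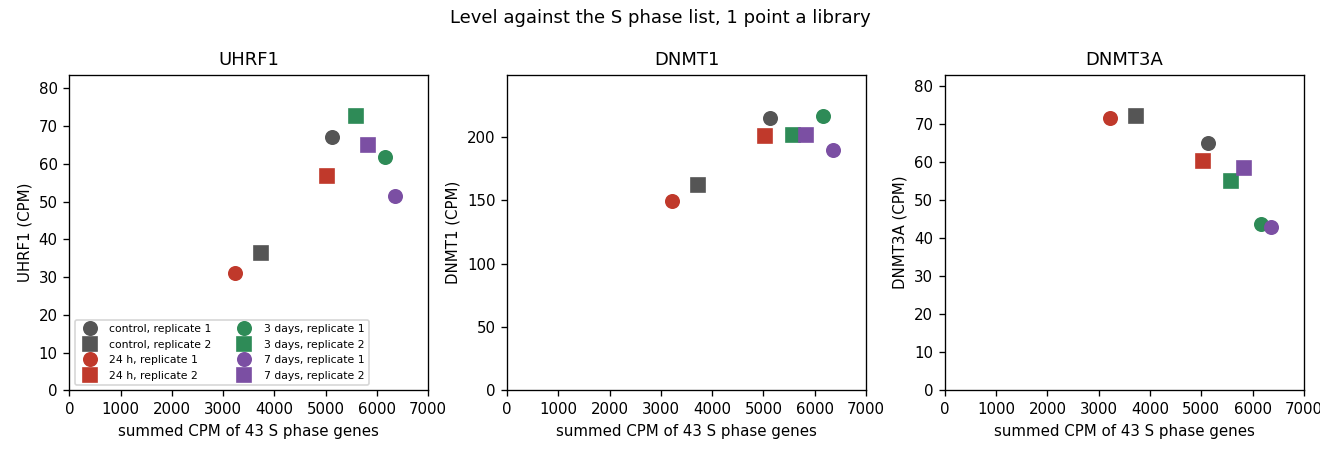
Level of UHRF1, DNMT1 and DNMT3A in CPM (vertical axes) against the summed CPM of the 43 S phase genes (horizontal axes), with 1 point a library, colour for the group and circles or squares for replicate 1 or 2. The 2 libraries with the lowest sums, 3223.3 and 3729.1 CPM, have the lowest UHRF1 and DNMT1 levels, and DNMT3A is lowest in the 2 libraries with the highest sums, 6156.8 and 6352.5 CPM.

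Of the de novo enzymes, DNMT3A carried nearly all the counts. It stood at 64.8 and 72.1 CPM in control, 71.5 and 60.4 at 24 h, 43.6 and 54.9 at 3 days, and 42.9 and 58.3 at 7 days. All 4 late libraries lay below the 4 early ones, with 60.4 CPM as the lowest early and 58.3 CPM as the highest late value. Against control the log2 fold change was -0.05 at 24 h (95% interval -0.61 to 0.5), -0.48 at 3 days (-1.03 to 0.08, edgeR adjusted p = 0.843) and -0.44 at 7 days (-1 to 0.12, adjusted p = 0.851). Both late groups lay below both controls, as did 17.2% of all genes at 3 days and 17.9% at 7 days. Late against early the log2 fold change was -0.43 ± 0.17 (SE; 95% interval -0.82 to -0.03; unadjusted p = 0.0372, adjusted p = 0.33). Without the 2 late replicate 1 libraries, which held the 2 lowest values, it was -0.24 with an adjusted p of 0.616, and the differences from control were -0.31 at 3 days and -0.23 at 7 days.

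DNMT3B, the relative of DNMT3A that is abundant in pluripotent cells, was close to the lower limit of measurement. Its raw counts were 29 and 13 in control, 15 and 26 at 24 h, 11 and 31 at 3 days, and 13 and 18 at 7 days. The exact Poisson 95% interval ran from 5.49 to 19.7 for the lowest count of 11 and from 21.1 to 44 for the highest of 31, and covers counting error only. The high and the low counts fall inside the same groups, so the groups overlap in every comparison. The 95% interval of the log2 fold change ran from -1.35 to 1.37 at 24 h, from -1.35 to 1.36 at 3 days and from -1.64 to 1.12 at 7 days. Changes of up to about these sizes lie inside the intervals, whose width reflects the spread between libraries as well as the low counts. Late against early it was -0.13, and 0.19 without the 2 late replicate 1 libraries.

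TET3 was the TET enzyme with the clearest ordering over time. It stood at 121.3 and 137.9 CPM in control, 159.9 and 113.5 at 24 h, 92.9 and 104.4 at 3 days, and 93.4 and 109 at 7 days. All late libraries lay below all early ones, with 113.5 and 109 CPM as the nearest values. The log2 fold change was 0.08 at 24 h (95% interval -0.46 to 0.61), -0.39 at 3 days (-0.93 to 0.14, edgeR adjusted p = 0.843) and -0.36 at 7 days (-0.89 to 0.18, adjusted p = 0.851). Late against early it was -0.41 ± 0.16 (SE; 95% interval -0.79 to -0.03; unadjusted p = 0.0362, adjusted p = 0.329), and -0.32 without the 2 late replicate 1 libraries (adjusted p = 0.589).

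TET2, the TET gene most often mutated in blood cancers, showed no such ordering. It stood at 87.8 and 126.1 CPM in control, 147.7 and 99.7 at 24 h, 105.5 and 109.2 at 3 days, and 119.5 and 108.9 at 7 days. The 4 late libraries lay between the lowest control and the highest 24 h value. The log2 fold changes were 0.21 at 24 h (95% interval -0.4 to 0.82), 0.01 at 3 days (-0.6 to 0.61), 0.1 at 7 days (-0.51 to 0.7) and -0.05 late against early (-0.49 to 0.38). An antisense gene, TET2-AS1, overlaps TET2 in the annotation used here and has no entry of its own in the count tables, and with no strand setting given, reads of the 2 genes cannot be told apart.

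TET1, known best from pluripotent and germ cells, was scarce and differed more between replicates than between groups. Its raw counts were 65 and 77 in control, 72 and 62 at 24 h, 21 and 93 at 3 days, and 14 and 95 at 7 days. Replicate 1 at 3 days and at 7 days lay far below the other 6 libraries, and replicate 2 of both groups lay above the early libraries. The exact Poisson 95% intervals, which cover counting error only, were 13 to 32.1 and 7.65 to 23.5 for the low libraries. For the high ones they were 75.1 to 114 and 76.9 to 116, both overlapping the 60.8 to 96.2 of control replicate 2. In CPM the groups stood at 6.8 ± 1.54, 6.5 ± 1.04, 5.23 ± 4.34 and 5.55 ± 5.66 (SD, n = 2). The log2 fold change was -0.29 ± 0.57 late against early (SE; edgeR adjusted p = 0.807) and turned to 0.43 without the 2 low libraries (adjusted p = 0.554). Markers of pluripotent or germ cells summed to 1.23 and 1.32 CPM in the 2 libraries low for TET1 and to 1.7 and 1.61 CPM in the 2 high ones. They summed to 1.67 and 1.64 CPM in control and to 0.603 and 1.58 CPM at 24 h. The lowest sum thus lay in 24 h replicate 1, which had 72 TET1 counts. None of these markers passed the filter on low counts, and their part in the gap was not tested.

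The excision enzymes varied least over the 8 libraries, with a root mean square deviation of log2 CPM of 0.115 for MBD4 and 0.136 for TDG, against 0.179 for DNMT1 and 0.854 for TET1. TDG stood at 162.4 and 139.7 CPM in control, 124.9 and 166.2 at 24 h, 143.1 and 151.7 at 3 days, and 157.6 and 132.4 at 7 days, and the lowest and the highest library were both from 24 h. Its log2 fold changes against control were -0.05 (95% interval -0.57 to 0.46), -0.04 (-0.55 to 0.48) and -0.06 (-0.57 to 0.45) at the 3 times. MBD4 stood at 159.9 and 199.2 CPM in control, 177.3 and 191.7 at 24 h, 166.8 and 182 at 3 days, and 184 and 205.7 at 7 days. Both 7 day libraries of MBD4 lay above both 3 day libraries, as for 5.24% of all genes in that direction, with a log2 fold change of 0.16 ± 0.2 (SE; edgeR adjusted p = 1). Late against early, MBD4 differed by 0.02 (95% interval -0.31 to 0.35) and TDG by -0.02 (-0.38 to 0.34). MBD4 overlaps IFT122, a cilium gene on the opposite strand with 1596 counts over the 8 libraries. Part of either count could thus belong to the other gene. Shared reads could also lie among those entered as ambiguous, 0.608% to 1.12% of reads a library.

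Ratios of counts inside a library do not depend on library size. The ratio of TET2 to TET3 was 0.723 and 0.915 in control, 0.923 and 0.878 at 24 h, 1.14 and 1.05 at 3 days, and 1.28 and 0.999 at 7 days, so that every late library lay above every early one. The mean log2 ratio was 0.15 ± 0.16 late and -0.22 ± 0.16 early (SD, n = 4 libraries each; 2-sided exact permutation test, p = 0.0286, the smallest that 4 against 4 allows; adjusted p = 0.0857 over 3 pairs). Without the 2 late replicate 1 libraries the difference of mean log2 ratios went from 0.38 to 0.26 (2-sided exact permutation test, p = 0.133, adjusted p = 0.2; 2 against 4 cannot go below 0.0667). The ratio of DNMT1 to UHRF1 ran from 2.78 to 3.68 in late and from 3.2 to 4.82 in early libraries (2-sided exact permutation test, p = 0.171, adjusted p = 0.257). That of DNMT3A to DNMT3B ran from 19.8 to 38.6 and from 25 to 54.2, with wide counting error in DNMT3B (exact p = 0.457, adjusted p = 0.457). None of the 3 passed the adjustment. The permutation test takes all libraries as independent. Late libraries of the same number resemble each other, as control and 24 h libraries do, so these p-values may also be too small. The ratio of DNMT1 to DNMT3A, looked at after its values were seen and so not tested, was 3.31 and 2.25 in control, 2.1 and 3.33 at 24 h, 4.97 and 3.68 at 3 days, and 4.42 and 3.46 at 7 days.

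**Figure D4:**
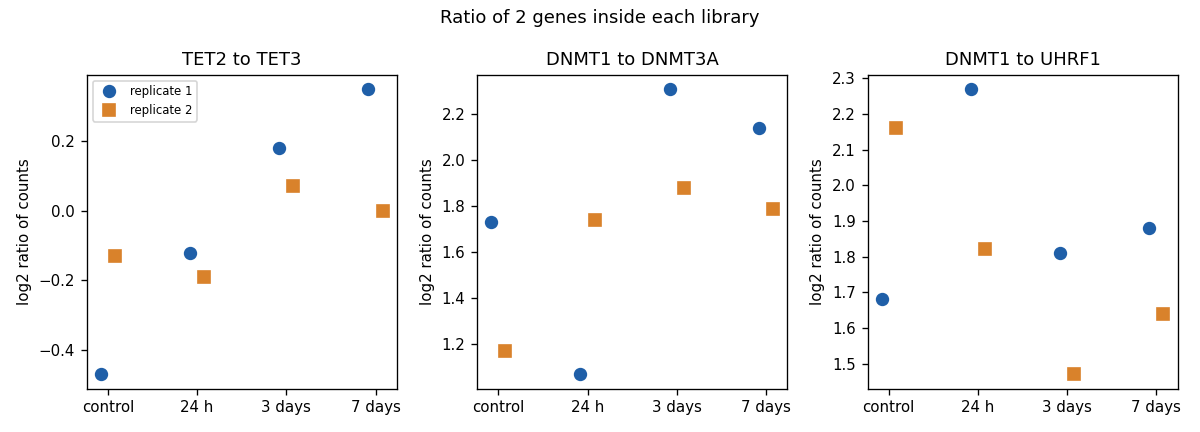
Log2 ratio of the counts of 2 genes inside each library (vertical axes) in the 4 groups (horizontal axes), with replicate 1 as circles and replicate 2 as squares. The 4 late libraries lie above the 4 early ones for TET2 to TET3 (ratios 0.999 to 1.28 against 0.723 to 0.923) and for DNMT1 to DNMT3A, and the groups overlap for DNMT1 to UHRF1.

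The 2 libraries of a group often differed by more than the groups did. A gap of over 0.5 in log2 CPM separated the 2 control libraries for 3 of 9 members (21.9% of all genes), the 24 h libraries for 3 (25.8%), the 3 day libraries for 2 (48.9%) and the 7 day libraries for 1 (47.3%). For UHRF1, replicate 1 exceeded replicate 2 by 0.88 in control, and fell short of it at 24 h with a difference of -0.87. The gap had opposite signs in control and 24 h for 8 of 9 members, MBD4 being the exception, against 75% of all genes, and the same sign at 3 and 7 days for 6 of 9 against 83.7%. TET1 had the widest gaps, -1.85 at 3 days and -2.48 at 7 days, and 9.99% and 10.7% of all genes had a gap below -1 in these groups.

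**Figure D5:**
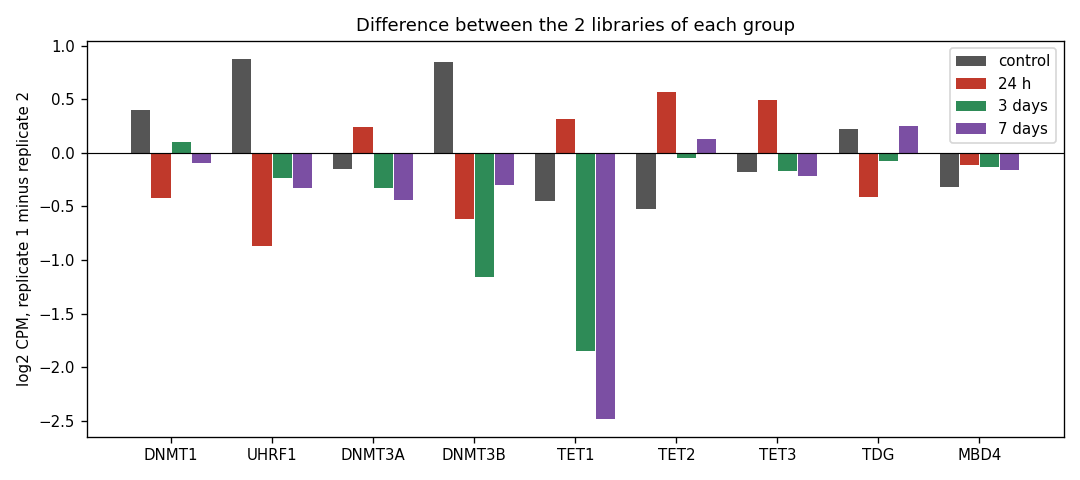
Difference in log2 CPM between replicate 1 and replicate 2 (vertical axis) for each gene, with 1 bar a group. The bars of control and 24 h point in opposite directions for 8 of 9 genes, and TET1 at 3 days (-1.85) and 7 days (-2.48) has the longest bars.

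Genes with the most similar course were sought among 8223 genes (8224 for TET1 and DNMT3B) with a mean of at least 10 CPM, by the root mean square difference of log2 CPM centred on each gene's own mean over the 8 libraries. Nearest to DNMT3A were FLJ31306 at 0.0323, ARHGAP31 at 0.0451 and MYO1C at 0.0566, and its nearest member was TET3, 61st in the order at 0.103. Nearest to TET3 were GPC4 at 0.0782, ICOSLG at 0.0796 and IFT74 at 0.0839, with DNMT3A 19th at 0.103. UHRF1 was nearest to PPIB and GTSE1, both at 0.138, and to TNFRSF17 at 0.141, and its nearest member was DNMT1, 113th at 0.246. TET1 was nearest to DNAH1 at 0.149, EXOC4 at 0.151 and FCRL5 at 0.156, with DNMT3A as its nearest member only 1474th at 0.653. TET2 was nearest to BRWD1 and POT1, both at 0.0591, MBD4 to CNST at 0.0558, TDG to NAA35 at 0.0501, DNMT1 to ACAA1 at 0.0405 and DNMT3B to GNL3L at 0.123. These distances describe 8 libraries that share their library effects.

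The wider pathway was described by gene lists in the same fit, where no gene of any list was called in any comparison and where 14.2% of all genes had an unadjusted p under 0.05 late against early. Of 23 tested DNMT partners and cofactors, 17 were higher and 6 lower late against early, the median being 0.3 on the log2 scale (all genes 0.01), and 7 had an unadjusted p under 0.05. CDCA7L, a relative of the HELLS cofactor CDCA7, ranged from 23 to 30.1 CPM in early and from 44.3 to 57.5 CPM in late libraries (log2 fold change 0.87 ± 0.15, SE, edgeR adjusted p = 0.136). KDM2B, which binds unmethylated CpG islands, ranged from 116.6 to 123.4 CPM early and from 82.6 to 94.1 CPM late (-0.47 ± 0.13, adjusted p = 0.261). EHMT2, a histone H3 lysine methyltransferase, ranged from 21.9 to 31.3 CPM early and from 31.1 to 44 CPM late, so its ranges overlapped slightly. Of 14 readers of methylated CpG, 6 were higher and 8 lower with a median of -0.1, and 3 had an unadjusted p under 0.05. These 3 were MBD1, with a log2 fold change of 0.39 ± 0.14 (SE, edgeR adjusted p = 0.313), BAZ2B with -0.83 ± 0.33 (adjusted p = 0.329) and MBD6 with -0.44 ± 0.18 (adjusted p = 0.33). Without the 2 late replicate 1 libraries, BAZ2B stood at -0.4, MBD6 at -0.26, the median of the readers at 0.04 with 9 higher and 5 lower, and that of the partners and cofactors at 0.14 (all genes -0.01). In that fit KDM2B stood at -0.41 and EHMT2 at 0.34, beside 0.56 for EHMT2 over all libraries.

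Downstream of the TET enzymes, 13 of 19 tested base excision repair genes were higher and 6 lower late against early (median 0.18). None had an unadjusted p under 0.05 in the fit of all libraries. Without the 2 late replicate 1 libraries 11 were higher and 8 lower, with a median of 0.15 (all genes -0.01). GADD45A, a stress-induced gene linked to demethylation, was at 231.2 and 268.8 CPM in the late replicate 1 libraries. It stood between 39.8 and 68.2 CPM in the other 6. Its log2 fold change late against early was 1.28 ± 0.6 (SE, edgeR adjusted p = 0.366) and turned to -0.39 without those 2 libraries (adjusted p = 0.377). APOBEC3B, a DNA cytosine deaminase, ranged from 7.25 to 10.5 CPM early and from 12.2 to 30.8 CPM late (late against early 1.36 ± 0.36, SE, edgeR adjusted p = 0.235), with the 2 highest values in the late replicate 1 libraries, and 0.63 without them (adjusted p = 0.35).

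Supply of the methyl donor and of the TET cosubstrate held genes of both directions. Of 17 tested genes of methyl donor supply, 9 were higher and 8 lower late against early with a median of 0.04 (0.19 without the 2 late replicate 1 libraries), and 4 had an unadjusted p under 0.05. AHCYL2, a relative of the hydrolase that clears S-adenosylhomocysteine, ranged from 35.1 to 43.4 CPM early and from 22.2 to 26.2 CPM late (log2 fold change -0.67 ± 0.15, SE, edgeR adjusted p = 0.177). SHMT2, the mitochondrial serine hydroxymethyltransferase, ranged from 43.9 to 68.8 CPM early and from 80.1 to 119.4 CPM late (0.79 ± 0.21, SE, adjusted p = 0.233). Without the 2 late replicate 1 libraries AHCYL2 stood at -0.57 and SHMT2 at 0.57. Of 22 tested genes of 2-oxoglutarate supply and TET regulation, 14 were higher and 8 lower with a median of 0.06, and 3 had an unadjusted p under 0.05. Without the 2 late replicate 1 libraries 17 were higher and 5 lower, again with a median of 0.06. IDH2, the mitochondrial isocitrate dehydrogenase that makes 2-oxoglutarate, ranged from 54.9 to 62.4 CPM early and from 77.3 to 109.1 CPM late (0.71 ± 0.15, SE, adjusted p = 0.165).

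Genes whose silence is known to depend on DNA methylation were read last, with no methylation measured here. Of 35 germline genes silenced by promoter methylation, 34 were in the tables, 17 had no count in any of the 8 libraries and 4 passed the filter. Late against early, 2 of these 4 were higher and 2 lower (median 0.1), and 2 had an unadjusted p under 0.05, SYCP3 and TEX15. Without the 2 late replicate 1 libraries 3 passed the filter and all 3 were lower. MAGEA1, MAGEA3 and SSX1, cancer-testis genes, were among those at 0 counts in all libraries, which allows up to about 3 counts in each by counting error alone. Reads without a unique alignment, 4.98% to 5.99% of reads a library, were assigned to no gene. A count of 0 therefore does not establish silence. SYCP3, a protein of meiotic chromosomes, had 6 and 3 counts in control, 0 and 3 at 24 h, 28 and 2 at 3 days, and 31 and 9 at 7 days, so its high values lay in the late replicate 1 libraries, without which it did not pass the filter. TEX15, a germ cell gene already present in control, stood at 22.4 and 35.1 CPM there, 33.9 and 25.4 at 24 h, 9.15 and 14.4 at 3 days, and 12.8 and 17.8 at 7 days (late against early -1.12 ± 0.25, SE, edgeR adjusted p = 0.177). Its log2 fold change was -0.86 without the 2 late replicate 1 libraries. Of 29 imprinted genes in the tables, 7 had no count in any library and 14 were tested, 6 higher and 8 lower late against early with a median of -0.13 and 3 with an unadjusted p under 0.05. Without the 2 late replicate 1 libraries 9 of 15 tested were higher and 6 lower, with a median of 0.02. PEG10, expressed from the paternal allele, ranged from 54.6 to 78.5 CPM early and from 89 to 112.1 CPM late (0.67 ± 0.18, SE, adjusted p = 0.234). PLAGL1, a zinc finger gene also expressed from the paternal allele, ranged from 50.4 to 86.2 CPM early and from 18.9 to 41.9 CPM late (-1.07 ± 0.3, SE, adjusted p = 0.261, and -0.67 without the 2 late replicate 1 libraries).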

How the data were processed

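RNA from 8 libraries was selected on poly-T beads, amplified with 15 cycles of PCR and sequenced as paired reads of 150 bases, per the labels' protocols. Each library has a deposited table of raw read counts by gene symbol, in whole numbers and unpooled. The submitters' processing notes list Trim Galore, Bowtie2 and SAMtools, R 3.2.3 with DESeq2 1.8.1, and the build GRCh37 (hg19). Which tool counted the reads, with which strand setting and annotation, is not given in the sources used here. Per library, 5 entries naming no gene held 42.6% to 57.5% of reads; they entered neither library sizes nor tests.

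Genes were kept with filterByExpr of edgeR 4.0.16 (minimum count 10, minimum total 15; 12536 of 23710 genes), scaled with TMM factors and tested with glmQLFit and glmQLFTest in R 4.3.3 on all 8 libraries, with 1 coefficient a group and no covariate. There were 4 residual and 4.09 prior degrees of freedom, and the common coefficient of biological variation was 0.276. p-values were Benjamini-Hochberg adjusted over the 12536 genes and called at 0.05. CPM are counts divided by TMM-scaled library size, a prior count of 2 was added for log2 CPM, and standard errors were taken from the F statistic. Values per kb used coding and exon lengths of GENCODE v29 on GRCh38, a newer build than the authors'. The procedure was tested on simulated data. The alternatives comprised scaling by upper quartile or RLE, DESeq2 1.42.0, voom of limma 3.58.1, no filter, a strict filter (50 counts in at least 2 libraries), robust empirical Bayes, a fit of the compared groups only, a replicate block and leaving out 1 library at a time; a crossed block and a fit without the 2 late replicate 1 libraries were chosen after seeing the data. Where the labels call libraries biological replicates without naming separate cultures, p-values measure the spread between these libraries.

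The members and gene lists were chosen with earlier results of these data known. All members are named. For each list, candidates for naming were the 3 tested genes with the smallest p late against early and the 1 with the smallest p at 24 h. Some genes the rule selects are not reported here. MAGEA1, MAGEA3, SSX1 and DNMT3L were named after their values were seen. Genes of most similar course are the 3 nearest to a member with a mean of at least 10 CPM and no clone or LOC symbol.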

Additional observations from a re-analysis of the deposited data

How the results depend on the processing

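Over 45 log2 fold changes of the 9 members and 841 alternative values, none crossed the threshold of adjusted p, and 79 changed sign without being called. DNMT3A late against early ranged from -0.54 to -0.24 and TET3 from -0.53 to -0.28, both lower in every alternative run. Their smallest edgeR adjusted p, 0.0505 and 0.0566, came from the crossed block, which was chosen after seeing the data. The main fit gave 0.33 and 0.329. The log2 ratio of TET2 to TET3 ranged from 0.26 to 0.43. TET1 late against early ranged from -1.21 without 7 day replicate 2 to 0.43 without the 2 late replicate 1 libraries.

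Counts of genes called moved more, and the cause was not tested. At 3 days against control, 0 became 9 with DESeq2 and 11 with no count filter, at 7 days 15 and 16, and in the joint test 65 and 67. Late against early, the 1 gene called became 277 with DESeq2, 489 with no count filter, 0 without the 2 late replicate 1 libraries, and from 0 to 0 with any 1 library left out. The 24 h comparison and 7 against 3 days kept 0 calls in all alternatives. With the replicate number as a block, 0 genes were called in each comparison except late against early, with 1; replicate differences correlated at -0.6 between control and 24 h and at 0.81 between 3 and 7 days, and the labels do not tie the numbers to shared cultures. With the numbers crossed at 24 h, 6 genes were called at 3 days, 5 at 7 days, 15 in the joint test and 1101 late against early, none a member. Depth limits DNMT3B, with 11 to 31 counts a library. A library left out leaves a group with 1 library assumed to vary like the others.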
